A study of Mus musculus with 10 samples.

Results

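The comparison described here is that of mouse embryonic stem cells (ESCs) without DGCR8 with wild-type ESCs, made on messenger RNA levels measured by 3′-end sequencing. It used 6 of the 10 libraries of the series, 3 from DGCR8 knockout (DGCR8 KO) cells and 3 from wild-type (WT) cells. The other 4 libraries, from 2 clones of DDX6 knockout (DDX6 KO) cells, entered only where stated, in comparisons between the knockouts and in 1 alternative fit. Levels are given in CPM, which are counts per 1e6 counts of the scaled library. Spike-in sequences were removed, and a gene was kept when it had at least 3 CPM, here taken before scaling, in at least 3 of the 6 libraries. This rule kept 10944 of the 51467 genes in the table, or of the 22633 genes with at least 1 count, and 99.3% to 99.4% of all counts in a library fell on the kept genes. Some of them passed through 1 group only, so that their inclusion already required a difference. The WT cells were V6.5 ESCs, and the DGCR8 KO cells were 1 Dgcr8-null line, so that the genotype and the history of that line cannot be told apart. Both were grown in Knockout DMEM with 15% fetal bovine serum, LIF and the 2 inhibitors (2i) PD0325901 and CHIR99021, which block MEK and GSK3 and hold ESCs in the naive state. Nothing in the sources used here says that the replicates came from separate cultures, so the p-values measure only the spread between these libraries.

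DGCR8 is the RNA-binding partner of the nuclease Drosha. Together they cut hairpins out of primary transcripts, and Dicer then trims the hairpins to mature miRNAs, which guide Argonaute (AGO) and GW182 (TNRC6) proteins to sites in 3′ UTRs. There the CCR4-NOT complex shortens the poly(A) tail, and the mRNA is decapped and degraded. In ESCs the most abundant miRNAs are the ESCC (embryonic stem cell-enriched cell cycle) miRNAs, made from the miR-290 cluster and in smaller amounts from the miR-302 cluster. They are known to hold down inhibitors of the step from G1 to S phase.

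The mature ESCC miRNAs in the RefSeq table (GRCm38.p6) share 1 seed, bases 2 to 8, which is what a target site pairs with. They are printed because the target results rest on that seed, which stands in capitals.
mmu-miR-291a-3p: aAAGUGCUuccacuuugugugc
mmu-miR-294-3p: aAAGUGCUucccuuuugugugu
mmu-miR-295-3p: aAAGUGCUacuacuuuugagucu
mmu-miR-302b-3p: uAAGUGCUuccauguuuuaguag
mmu-miR-302d-3p: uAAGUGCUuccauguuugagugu
The first 3 lie on chromosome 7 and both miR-302 members on chromosome 3. A second family, of the miR-17 cluster, has the same bases moved by 1 position, so that its sites overlap with ESCC sites.
mmu-miR-17-5p: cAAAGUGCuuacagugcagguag
mmu-miR-20a-5p: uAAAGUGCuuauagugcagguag

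The libraries held 2131156 to 4745083 counts in WT and 2610684 to 3381970 in DGCR8 KO cells, at which 3 counts correspond to 0.644 to 1.39 CPM, and intervals given below cover counting error only. Spearman correlations between libraries of 1 group, across the tested genes, were 0.970 to 0.981. By limma's test on voom-weighted counts, with p-values adjusted over all genes tested, 2046 genes rose (18.7%) and 1737 fell (15.9%), and the median log2 fold change was 0.00. Without DGCR8 KO replicate 1 the number that fell was 1115. Called higher or lower, which adds a log2 fold change beyond 1 in size, were 964 (8.81%) and 606 genes (5.54%). "Rose" and "fell" below mean an adjusted p under 0.05, every count of a gene list is to be read against these shares, and the amounts by which genes rose or fell, like the single values in brackets, are log2 fold changes.

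Dgcr8 itself (ENSMUSG00000022718, GRCm38 chromosome 16 from 18253948 to 18289246, minus strand) stood at 49.2, 50.8 and 63.8 CPM in the WT libraries and at 9.72, 8.85 and 14.8 CPM in the DGCR8 KO libraries. The groups did not overlap, and the mean went from 54.6 ± 7.99 to 11.1 ± 3.24 CPM (SD, n = 3 each). The log2 difference was -2.36 (SE 0.24, limma adjusted p = 1.49e-05). Since the reads come from the 3′ end and the deleted part of the gene is not given in the sources used here, the remaining counts say nothing on whether protein was made.

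The libraries of both groups carried the defining transcripts of ESCs. Sox2 was at 498 to 586 CPM in WT and 648 to 958 in DGCR8 KO cells, Esrrb at 293 to 395 and 316 to 368, and Zfp42 (chromosome 8) at 199 to 216 and 156 to 180, a fall only with the replicate block (-0.28, limma adjusted p = 0.0129). Pou5f1, for which near-identical pseudogenes can take reads, had 49.5 to 58.1 CPM in WT and 51.1 to 70.7 in DGCR8 KO cells. Of 13 fibroblast markers and 15 markers of 2-cell-like cells in the table none passed the filter, and their summed levels were 6.70 to 13.6 and 2.34 to 7.31 CPM in WT and 6.56 to 7.07 and 5.47 to 15.6 CPM in DGCR8 KO cells. Of the primitive endoderm markers, Sox7 was at 0 in all 6 libraries, and Gata4, Gata6 and Sox17 were under 2 CPM in each. Those that passed the filter were Dab2, at 3.46 to 7.96 CPM in WT and 0.328 to 1.56 CPM in DGCR8 KO cells, and Fst, at 9.73 to 15.5 CPM in WT and 20.7 to 37.0 CPM in DGCR8 KO cells. In such bulk libraries, fewer cells of a type and less RNA per cell cannot be told apart.

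Genes on chromosome 8 stood apart from the rest and are marked wherever they are named. Of 618 tested, 271 fell and 46 rose, and their median log2 fold change was -0.46, a median fold of 0.729, with quartiles of -0.80 and -0.06. Without DGCR8 KO replicate 1, the libraries left gave 30 that rose. On the other chromosomes 14.2% of genes fell and the median was 0.03. The shift was there in each library, with chromosome medians of -0.40, -0.52 and -0.43 in the DGCR8 KO libraries against the WT mean. It also ran along the whole chromosome. In segments of 10 Mb with at least 10 tested genes, 13 of 13 on chromosome 8 had a median below 0, from -0.69 to -0.13, while the 234 segments elsewhere ran from -0.33 to 0.61. Chromosome 8 held 5.65% of the genes tested and 16.8% of those called lower. DDX6 KO cells had no such shift against the same WT libraries (median -0.03). The number of copies of chromosome 8 was not measured.

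**Figure D1:**
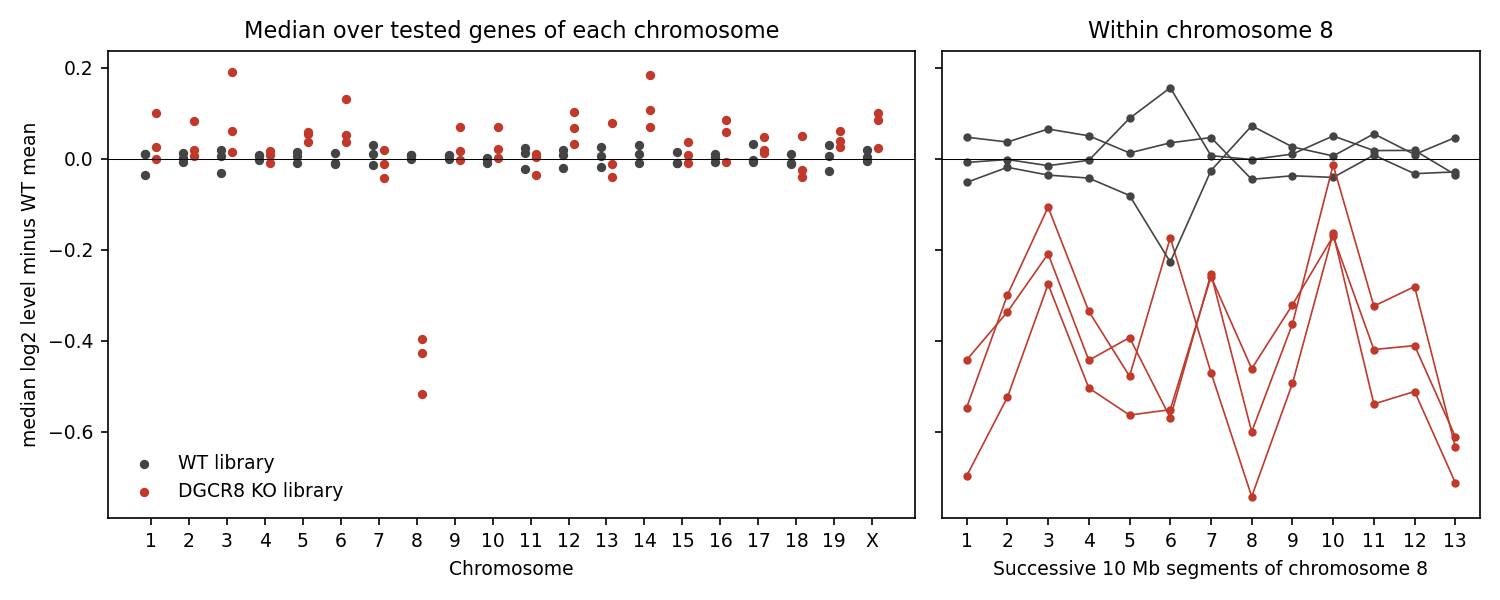
Median log2 difference from the WT mean over the tested genes of each chromosome (left) and of successive 10 Mb segments of chromosome 8 (right), 1 point per library. The 3 DGCR8 KO points of chromosome 8 lie at -0.40, -0.52 and -0.43, and the DGCR8 KO points of its 13 segments lie between -0.74 and -0.01.

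The first question was what happened to transcripts that the ESCC miRNAs can pair with. Genes with ESCC sites in the 3′ UTR were higher in DGCR8 KO cells, by an amount that was largest for the 8-base site and grew with the number of sites. The 8-base site (8mer) is AGCACTTA, the 7-base sites (7mer) are AGCACTT and GCACTTA, and only the transcript strand was read. Of 10343 tested coding genes with an annotated 3′ UTR, 378 (those with an 8mer) had a median log2 fold change of 0.41, and 44.4% of them rose while 3.44% fell. The corresponding medians were 0.19 for 1378 genes with AGCACTT at best, 0.20 for 336 with GCACTTA at best, 0.10 for 1258 with a 6-base match only, and -0.06 for 6993 with none. Of the genes without any match 14.5% rose and 18.4% fell. With 1 site of 7 or 8 bases the median was 0.19, with 2 sites 0.40 (349 genes) and with 3 or more 0.53 (118 genes). The 8mer median was 0.38, 0.48 and 0.37 in the DGCR8 KO libraries and between -0.02 and 0.02 in the WT libraries. Fewer 8mer genes fell when WT replicate 1 (8), DGCR8 KO replicate 3 (8) or DGCR8 KO replicate 1 (7) was left out, against 13 with all libraries.

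A longer 3′ UTR holds more sites of any kind, so the same medians were taken within quintiles of 3′ UTR length. In each quintile the genes with a 7- or 8-base site had the higher median, by 0.14, 0.29, 0.29, 0.23 and 0.13 from the shortest to the longest. The number and type of sites were not split by length in this way. The median 3′ UTR length was 852, 2093, 3261 and 5320.5 bases with 0, 1, 2 and 3 or more sites. Sites of miRNA families known from other tissues, read in the same way, had medians of 0.14 (miR-1 and miR-206), 0.11 (miR-9) and 0.15 (miR-142), and these became 0.04, -0.01 and 0.05 once genes with any ESCC match were left out. These values still lay above the -0.06 of all genes without an ESCC match. The 3′ UTRs of those genes were shorter, with a median of 718 bases against 1548 (miR-1 and miR-206), 1607 (miR-9) and 1668.5 (miR-142). The 478 genes with a miR-17 family site and no ESCC match had a median of 0.02, and the 1038 with an ESCC site and no miR-17 family site one of 0.14. The miR-17 family site GCACTTT itself holds a 6-base ESCC match, so the 478 lack every gene with that site. These medians therefore do not compare the families at like sites. Off chromosome 8, genes with and without ESCC sites had medians of 0.24 and -0.02. A match is a run of letters in 1 annotated 3′ UTR per gene, not a shown site.

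**Figure D2:**
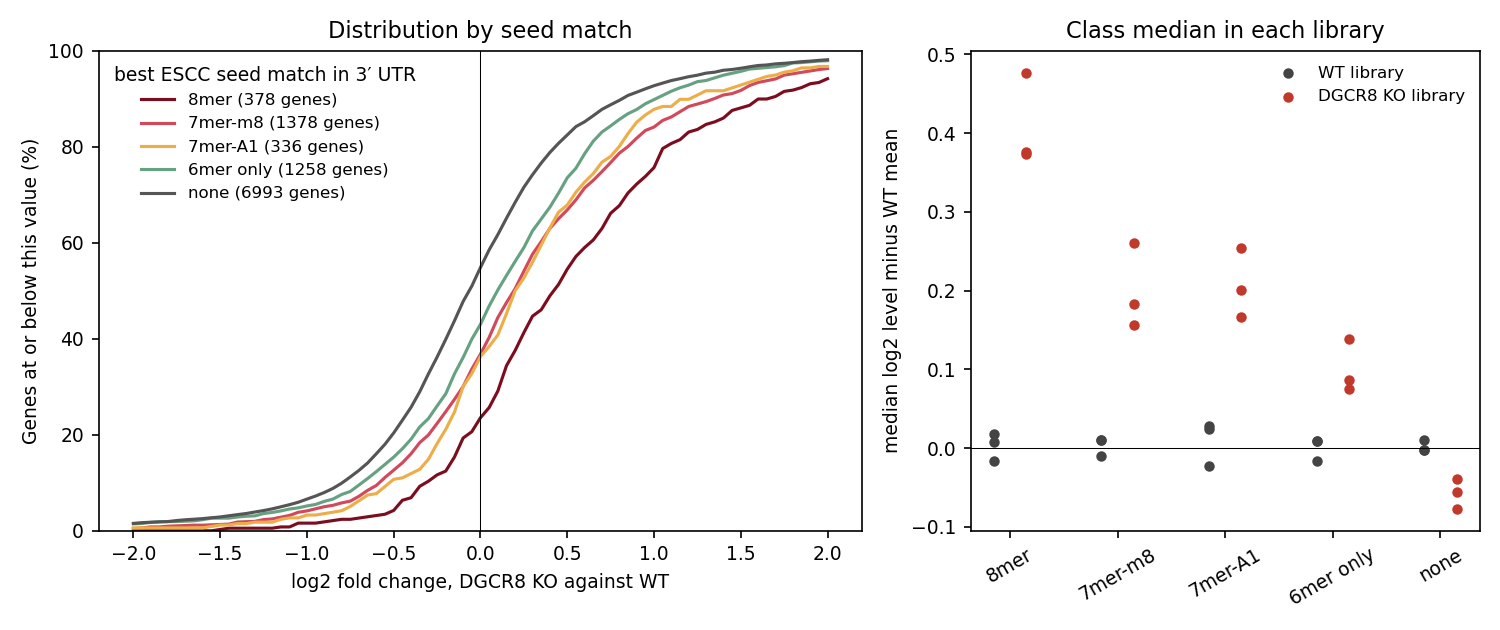
Cumulative share of tested coding genes against log2 fold change by their best ESCC match (left), and the median log2 difference from the WT mean of each class, 1 point per library (right). The curves move to the right from no match (median -0.06) to an 8mer (median 0.41), and the 3 DGCR8 KO points of the 8mer class lie at 0.37 to 0.48.

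Of 15 genes described elsewhere as direct targets of miR-290 or miR-302, 13 were tested, 11 rose and none fell, with a median of 0.93. This list was drawn up with earlier results known and is no independent evidence of direction. The windows below hold an 8mer, in capitals, of members that rose and of called genes with the most sites, in transcript direction with GRCm38 coordinates.
Lefty1, chr1:180938205-180938228, plus strand: gtatgcgaAGCACTTAcatgtata
Lefty2, chr1:180897909-180897932, plus strand: ccagtttaAGCACTTAcatgggta
Lats2, chr14:57691078-57691101, minus strand: atggaaagAGCACTTAttttgtgg
Cdkn1a, chr17:29100492-29100515, plus strand: ggtgtcaaAGCACTTAgtgggtct
Rbl2, chr8:91123822-91123844, plus strand: ttcaataaAGCACTTAtaaatta
Phc3, chr3:30904821-30904844, minus strand: tattactaAGCACTTAagaacttt
Zbtb37, chr1:161017581-161017604, minus strand: aaacttggAGCACTTAtcaacact
Tmem245, chr4:56879039-56879062, minus strand: tttttgaaAGCACTTAagactaaa

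Lefty1, a secreted inhibitor of Nodal signalling, stood at 94.1, 35.6 and 26.6 CPM in WT and at 1026, 954 and 331 CPM in DGCR8 KO cells. Its lowest knockout library lay above its highest WT library, the mean went from 52.1 ± 36.7 to 770 ± 382 CPM (SD, n = 3 each), a log2 change of 4.09 (SE 0.47, limma adjusted p = 3.79e-05). Its close paralog Lefty2, whose reads may be shared, went from 271 to 479 CPM in WT to 505 to 790 in DGCR8 KO cells (log2 fold change 0.90). Lats2, a Hippo pathway kinase that restrains growth, had 13.1, 11.96 and 17.3 CPM in WT and 91.9, 63.3 and 67.6 CPM in DGCR8 KO cells. Its groups were far apart, with a log2 difference of 2.34 (SE 0.23, limma adjusted p = 1.24e-05). Cdkn1a, the CDK inhibitor p21, was at 273, 201 and 219 CPM in WT and 491, 342 and 481 CPM in DGCR8 KO cells, also without overlap (0.93, SE 0.15, limma adjusted p = 0.000565). Rbl2 (chromosome 8), the retinoblastoma family protein p130, rose by 1.88 on the log2 scale, from 3.75, 6.31 and 5.84 CPM to 23.6, 18.03 and 19.14 CPM, against the fall of its chromosome. Casp2, a caspase, and Txnip, an inhibitor of thioredoxin, rose by 1.72 and 1.60. The other members that rose were Mbd2, Ei24, Arid4b and Cyld (chromosome 8), by 0.61 to 1.01, while Rhoc (0.47, limma adjusted p = 0.0507) and Akt1 (0.22) did not pass. With the replicate block Rhoc passed (0.44, limma adjusted p = 0.0131).

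The 6 called higher genes with an 8mer and the most sites were Zbtb37 and Tmem245 with 8 sites of 7 or 8 bases each, Phc3 with 6, Elf4 with 5, and Zkscan1 and Hook3 (chromosome 8) with 4. Phc3, a subunit of Polycomb repressive complex 1, was at 21.1, 37.5 and 27.4 CPM in WT and 161, 129 and 131 CPM in DGCR8 KO cells, a log2 difference of 2.30 (SE 0.19, limma adjusted p = 3.41e-06). The zinc finger gene Zbtb37 rose by 1.91, Tmem245 by 1.48, Zkscan1 by 1.47, Hook3 by 1.26 and the ETS factor Elf4 by 1.08. For none of the 6 did the libraries of the groups overlap.

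The machinery that acts with miRNAs was higher as a group. Of 12 tested genes for miRNA processing and effector proteins 7 rose and none fell, with a median of 0.41. Tnrc6a, a GW182 protein, stood at 137, 115 and 107 CPM in WT and 378, 420 and 357 CPM in DGCR8 KO cells, so that every knockout library was more than 2 times the highest WT library (log2 fold change 1.71, SE 0.12, limma adjusted p = 1.3e-06). Its relatives Tnrc6b and Tnrc6c rose by 1.36 and 0.77. Ago1 had 83.3, 68.8 and 70.9 CPM in WT and 183, 178 and 164 CPM in DGCR8 KO cells (1.25, SE 0.13). Ago2, the Argonaute that can cut its target, had 450 to 547 CPM in WT and 447 to 522 CPM in DGCR8 KO cells (-0.06, limma adjusted p = 0.678). Drosha (0.36, limma adjusted p = 0.0727) did not pass, but did so with the replicate block (0.39, limma adjusted p = 0.000698). Dicer1 rose by 0.36 (limma adjusted p = 0.0452), a call lost without WT replicate 1, WT replicate 2, DGCR8 KO replicate 1 or DGCR8 KO replicate 3 and in 4 other settings, and Ago3 rose by 0.65, a call lost without WT replicate 2. The ESCC sites in these genes were 0 in Tnrc6a, 2 in Tnrc6b and 2 in Ago1.

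Among 17 tested deadenylase genes 4 rose and 2 fell (median 0.13), and leaving out any library gave 1 that fell. The 2 paralogous catalytic subunits Cnot6 and Cnot6l rose by 1.48 (SE 0.11) and 1.36. Cnot6 had 121, 128 and 121 CPM in WT and 355, 343 and 332 CPM in DGCR8 KO cells and holds no ESCC site, whereas Cnot6l holds 1 8mer. Cnot1 (chromosome 8), the scaffold of the complex, fell by 0.63. Of 17 decapping and P-body genes 7 fell, 4 without DGCR8 KO replicate 1, and 1 rose. The number that rose was 2 with the replicate block, 2 without DGCR8 KO replicate 3 and 0 without DGCR8 KO replicate 1 or WT replicate 3. Among those that fell were Lsm6 and Lsm4 (both chromosome 8), of the Lsm rings that bind RNA 3′ ends, by 1.17 and 1.04. Off chromosome 8, the 13 genes of this list had a median of 0.00. The helicase gene Ddx6 had 492 to 568 CPM in WT and 468 to 501 CPM in DGCR8 KO cells, which did not pass (-0.13, limma adjusted p = 0.337).

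Primary transcripts that hold miRNA hairpins were measured where they carry a poly(A) tail, and 4 of 9 tested rose while 2 fell, 1 without DGCR8 KO replicate 1 or WT replicate 3. Mir17hg, the host of the miR-17 cluster on chromosome 14, had 15.0, 12.3 and 15.1 CPM in WT and 74.5, 99.7 and 73.0 CPM in DGCR8 KO cells. Every knockout library was more than 4-fold above every WT library, with a log2 difference of 2.52 (SE 0.21, limma adjusted p = 4.21e-06). Mir295, a hairpin gene of the miR-290 cluster, had 0.936, 2.33 and 0.648 CPM in WT and 11.2, 9.84 and 10.9 CPM in DGCR8 KO cells (3.13, SE 0.49, limma adjusted p = 0.00038). It passed the filter only through the DGCR8 KO libraries, where it is high. Mir22hg rose by 1.76 and Mirg, of the imprinted Dlk1 to Meg3 region, by 1.12. Mir5136 fell by 1.20, and Mir7079 (chromosome 8) fell by 1.37, a call lost without WT replicate 3 or DGCR8 KO replicate 1. Reads on a hairpin gene cannot be told apart from reads of a longer transcript that runs through it.

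Regulators of the step from G1 to S phase rose on both sides, inhibitors and cyclins. Of 25 tested, 9 rose and 4 fell (median 0.14). Beside Cdkn1a, Lats2 and Rbl2, the inhibitory side held Lats1, which rose by 1.21, and the retinoblastoma gene Rb1, which rose by 0.96 (0.82, limma adjusted p = 0.0567, without WT replicate 3). On the other side, Ccnd2, a D-type cyclin, stood at 13.6, 16.9 and 18.6 CPM in WT and 141, 109 and 130 CPM in DGCR8 KO cells. The groups lay far apart, with a log2 difference of 2.90 (SE 0.19, limma adjusted p = 6.95e-07). Ccnd1 rose by 1.403 and the D-cyclin partner Cdk6 by 1.74, from 65.5 to 87.1 CPM in WT to 223 to 294.8 CPM in DGCR8 KO cells. Ccnd3 and Ccne1 fell by 0.89 and 0.96, and Ccne2 rose by 0.81.

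Genes that carry out S phase and mitosis were lower. Of 32 DNA replication genes 18 fell (13 to 18 with a library left out) and 1, the polymerase subunit Pola1, rose by 0.53. The count that rose was 4 with the replicate block and 2 without DGCR8 KO replicate 2. The list median was -0.41, and -0.29 for its 26 genes off chromosome 8, of which 12 fell. Rrm2, the small subunit of ribonucleotide reductase, had 217, 285 and 247 CPM in WT and 84.8, 105.9 and 122 CPM in DGCR8 KO cells, apart in all libraries (-1.28, SE 0.15, limma adjusted p = 4.32e-05). Mcm4, of the replicative helicase, fell by 0.83 and Ung, a uracil glycosylase, by 0.89, while Mcm5, Gins2 and Gins3, all on chromosome 8, fell by 1.22, 1.22 and 1.27. Of 22 mitosis genes 10 fell and 1, Kif23, rose by 0.58 (median -0.34, and no member lies on chromosome 8). Cenpa, the centromeric histone H3 variant, was at 475, 503 and 385 CPM in WT and 157, 181 and 147 CPM in DGCR8 KO cells. Every knockout library was under 50% of every WT library, and the log2 difference was -1.47 (SE 0.13, limma adjusted p = 6.53e-06). Ccnb1, Aurka and Plk1, which drive entry into and passage through mitosis, fell by 0.78, 0.69 and 0.66.

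**Figure D3:**
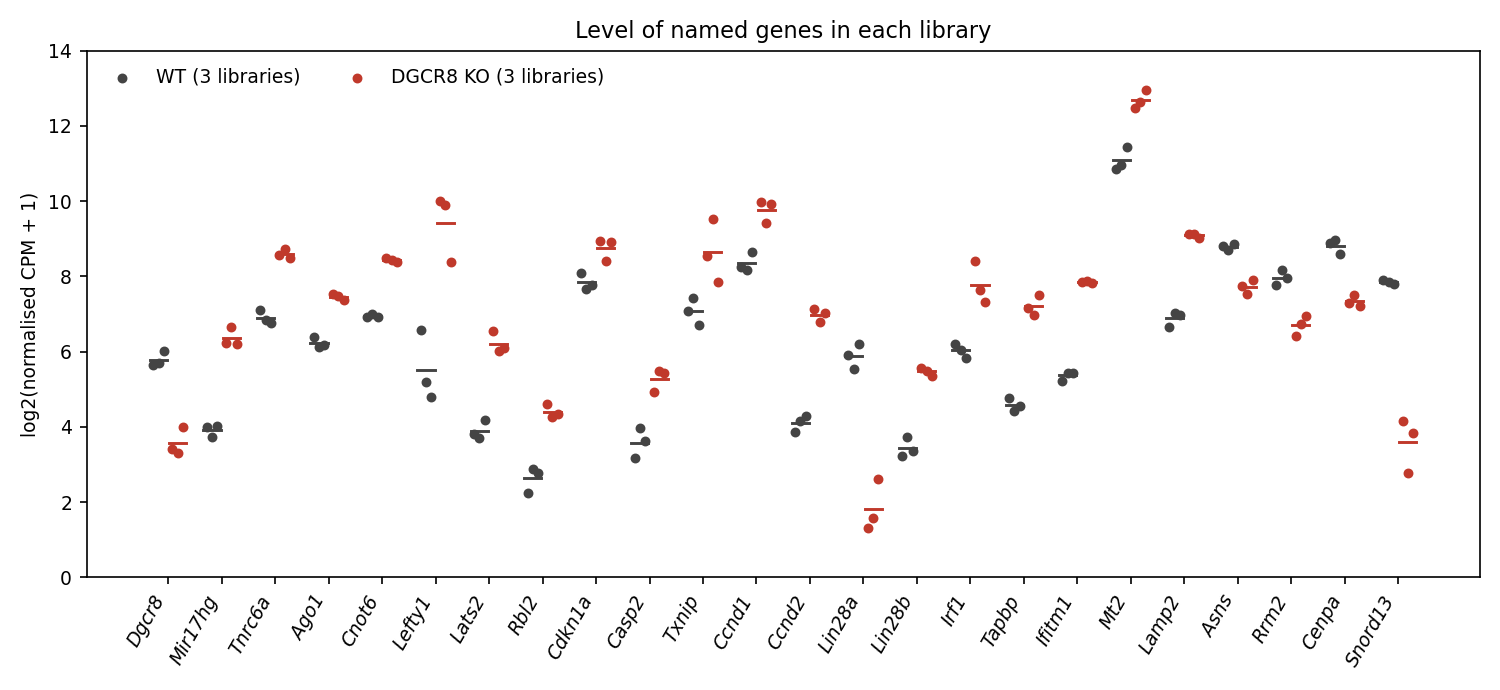
Levels of 24 genes named in the text as log2(CPM + 1), 1 point per library with a line at the group mean. Dgcr8, Lin28a and Snord13 are lower in all 3 DGCR8 KO libraries, and Ccnd2, Lats2, Lefty1 and Tapbp are higher in all 3.

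The RNA-binding genes Lin28a and Lin28b, whose products block maturation of let-7 miRNAs, moved in opposite directions. Lin28a on chromosome 4 had 59.5, 45.5 and 72.6 CPM in WT and 1.47, 1.97 and 5.08 CPM in DGCR8 KO cells (log2 fold change -4.56, SE 0.47, limma adjusted p = 1.73e-05). Lin28b had 8.43, 12.3 and 9.29 CPM in WT and 46.5, 43.9 and 40.2 CPM in DGCR8 KO cells (2.12, SE 0.22, limma adjusted p = 1.58e-05). For both genes the libraries of the groups did not overlap. Among all 20 Lin28 genes and let-7 targets tested 6 rose and 5 fell, with a median of 0.00. With the replicate block 8 rose and 9 fell, and without DGCR8 KO replicate 1 or WT replicate 2 the number that rose was 3. Igf2bp3, an mRNA-binding oncofetal protein, fell by 1.43 and Hmga2, a chromatin protein, by 0.85, while the transcription factor genes Plagl2 and Mycn rose by 1.51 and 1.02. Mycl, in contrast, fell by 1.91, from 19.7 to 27.2 CPM in WT to 4.30 to 7.54 CPM in DGCR8 KO cells.

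Core pluripotency factors had small fold changes, and larger ones were found among other naive genes. Of 22 core and naive factors 3 rose, 7 fell and 12 did not pass, and the median was -0.03. With the replicate block 6 rose and 10 fell, and the number that fell was 3 without DGCR8 KO replicate 1 and 4 without WT replicate 3. Dppa3, a naive and germ cell gene, had the lowest fold change of the list, with 12.6, 15.9 and 12.97 CPM in WT and 1.77, 6.23 and 1.56 CPM in DGCR8 KO cells (-2.31). Nr5a2 and Sall4, both activators of Pou5f1, fell by 0.74 and 0.62. Klf2 (chromosome 8) rose by 0.90, from 517 to 690 CPM in WT to 988 to 1271 CPM in DGCR8 KO cells. The calls on the core factors were fragile. Sox2 rose by 0.49 (0.40, limma adjusted p = 0.0780, without WT replicate 3). Klf4 and Nanog fell by 0.48 and 0.35, with overlap between the groups, and each lost its call in 4 of the 6 fits with a library left out, which were those without WT replicate 1, WT replicate 3, DGCR8 KO replicate 1 or DGCR8 KO replicate 2 for Klf4 and those without WT replicate 1, WT replicate 2, DGCR8 KO replicate 1 or DGCR8 KO replicate 3 for Nanog.

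Lineage genes moved in both directions. Of 14 neural genes tested 6 rose and 4 fell. Nefl, a neurofilament gene, had 109, 63.1 and 109 CPM in WT and 583, 257 and 560 CPM in DGCR8 KO cells (2.26), and the adhesion gene Ncam1 rose by 1.84, from 45.9 to 65.5 CPM in WT to 199 to 215 CPM in DGCR8 KO cells. Gap43, a growth cone gene, went the other way, from 6.56, 9.30 and 10.2 CPM to 1.18, 0.656 and 0 CPM (-3.93), and Tubb3 (chromosome 8), neuronal tubulin, fell by 1.56. Gap43 passed the filter only through the WT libraries, where it is high. The neural transcription factor gene Pax6 had 7 counts over the WT libraries and 42 over the DGCR8 KO libraries, a ratio of scaled counts of 6.51 with an exact 95% counting interval of 2.90 to 17.2. The list median of 0.83 changed sign, to -0.08, when no filter on low counts was used. Of 15 formative and primed epiblast genes 4 rose and 4 fell, and the number that rose was 7 with the replicate block and 2 without DGCR8 KO replicate 1 or WT replicate 3. Zic2, an early epiblast factor, rose by 1.11, and Dnmt3b, a de novo DNA methyltransferase, fell by 0.82. Of 4 trophoblast markers tested 1 rose (2 with the replicate block) and none fell, with a median of 0.08 and 2 of the 4 above 0. The 1 that rose was Tfap2c, also a gene of naive cells, by 0.84. Of the 2 primitive endoderm markers tested, Dab2 fell by 2.38, although it missed the filter with any WT library left out, and Fst rose by 1.02, a call lost without WT replicate 3.

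Signalling genes rose more often than they fell. Of 16 Nodal, activin and TGF-beta genes 7 rose and none fell, 4 rose without WT replicate 2 and 3 without WT replicate 3, and 1 fell with the replicate block or without WT replicate 1. The Lefty genes, described above, are members of this list. Of 11 BMP and Id genes 5 rose and none fell, 3 rose without WT replicate 2 or WT replicate 3, and 1 fell with the replicate block or without WT replicate 3. Id2, an inhibitor of bHLH factors, was at 40.3, 54.5 and 45.6 CPM in WT and 168, 179 and 130 CPM in DGCR8 KO cells (1.76), Smad6 rose by 1.17, and Id1 rose by 1.88, a call lost without WT replicate 3 (limma adjusted p = 0.0749).

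Of 11 Wnt target and TCF genes 5 rose and 1 fell, none without WT replicate 1, WT replicate 3, DGCR8 KO replicate 2 or DGCR8 KO replicate 3. Notum, which inactivates Wnt proteins, rose by 2.17, Sp5 by 1.91 and the TCF factor Tcf7l2 by 1.397. Of 14 FGF and ERK feedback genes 6 rose, 3 without DGCR8 KO replicate 1, and 3 fell. The Ras and ERK inhibitors Spry4 and Spred1 rose by 4.25 and 1.47. Spry4 passed the filter only through the DGCR8 KO libraries, where it is high. Egr1, an immediate early gene, was higher in every knockout library but uneven, with 17.8, 8.31 and 10.2 CPM in WT and 242, 65.9 and 45.3 CPM in DGCR8 KO cells (3.08). Etv5 and Fgfr1 (chromosome 8) fell by 0.77 and 0.87. In the LIF and STAT3 list 5 of 11 rose and 2 fell, 1 without DGCR8 KO replicate 1, WT replicate 2 or WT replicate 3. Il6st, the signal-transducing receptor gp130, had 27.6, 34.2 and 34.4 CPM in WT and 104, 125 and 111 CPM in DGCR8 KO cells, more than 3-fold above WT in every knockout library (1.79, SE 0.16, limma adjusted p = 5.09e-06).

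Interferon-stimulated and antigen presentation genes were higher in DGCR8 KO cells. Of 15 genes for double-stranded RNA sensors and interferon response 8 rose and 1 fell, Bst2 (chromosome 8) by 0.86, a call lost without WT replicate 3 or DGCR8 KO replicate 1. The median was 0.76. Ifitm1, an antiviral membrane protein, had 36.5, 42.2 and 42.6 CPM in WT and 229, 236 and 227 CPM in DGCR8 KO cells, a narrow spread in both groups (2.49, SE 0.13, limma adjusted p = 1.81e-07). The interferon factors Irf9 and Irf1 rose by 2.07 and 1.80, and Ddx58 (the RNA sensor RIG-I) and Oas1a by 1.68 and 1.88. Rsad2, the antiviral enzyme viperin, was at 0 in all WT libraries and at 7.36, 13.1 and 7.42 CPM in DGCR8 KO cells, at least 6.67-fold higher against the floor of 3 counts in a library. It passed the filter only through the DGCR8 KO libraries.

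Of 9 MHC class I presentation genes 5 rose and none fell (median 0.73), 3 rose without DGCR8 KO replicate 1, and 1 fell with the replicate block or without DGCR8 KO replicate 3. Tapbp, tapasin, which loads peptides, had 26.2, 20.3 and 22.5 CPM in WT and 142, 125 and 181.6 CPM in DGCR8 KO cells (2.69, SE 0.19, limma adjusted p = 1.14e-06). The peptide trimming enzyme Erap1 rose by 2.88, from 2.38 to 3.75 CPM to 17.6 to 27.2 CPM. Psmb8, an immunoproteasome subunit, was at 0 in all WT libraries and at 5.89, 6.88 and 3.90 CPM in DGCR8 KO cells, at least 3.99-fold higher. It too passed the filter only through the DGCR8 KO libraries. B2m rose by 1.02 (0.81, limma adjusted p = 0.0523, without WT replicate 3), and the heavy chain genes H2-K1 (-0.31) and H2-D1 (0.39) did not pass.

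**Figure D4:**
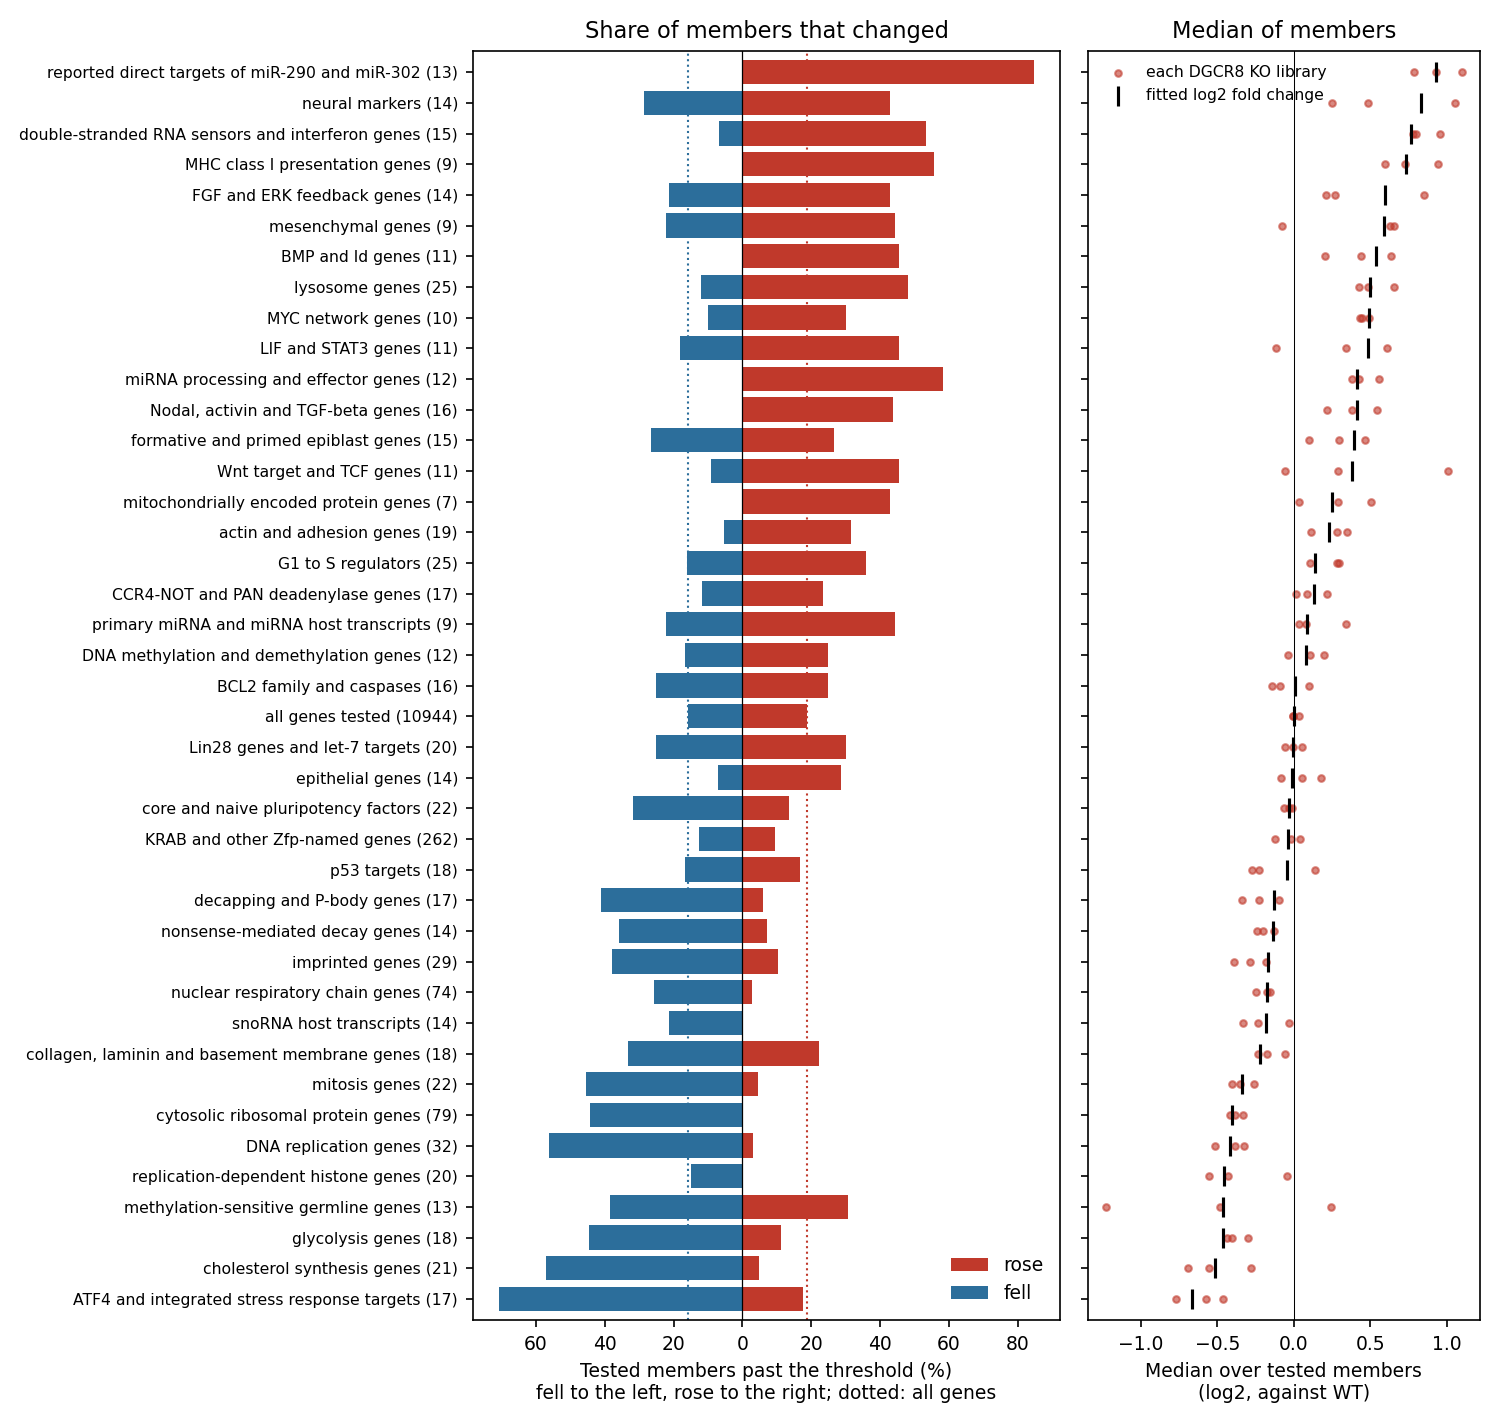
Share of tested members that rose or fell in each gene list, with dotted lines at the shares over all genes (18.7% and 15.9%), and the list medians of the log2 fold change with 1 point per DGCR8 KO library. Targets of miR-290 and miR-302 have the largest share that rose (11 of 13), and stress response genes a large share that fell (12 of 17).

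Cell death genes moved both ways, 4 of 16 rising and 4 falling, the latter 1 to 3 with a library left out (1 without WT replicate 1, WT replicate 2 or DGCR8 KO replicate 1, and 2 without DGCR8 KO replicate 3). Pmaip1 (Noxa), a death-promoting BH3-only protein, rose by 2.47, from 34.2, 25.3 and 13.6 CPM to 146, 132 and 77.7 CPM, and Bcl2l11 (Bim) and Bak1 rose by 1.13 and 0.75. Of 18 p53 targets 3 rose and 3 fell (median -0.04). Beside Cdkn1a, Perp rose by 1.48, while Mdm2, the ligase that degrades p53, fell by 0.94.

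Genes of amino acid supply and the integrated stress response were lower. Of 17 ATF4 targets and related genes 12 fell, 8 to 12 with a library left out, and the median was -0.66. The number that rose was 3, 5 with the replicate block and 1 without WT replicate 1, WT replicate 2 or DGCR8 KO replicate 1. Asns, which makes asparagine, had 450, 416 and 463 CPM in WT and 212, 183 and 237 CPM in DGCR8 KO cells, without overlap (-1.08). Phgdh and Psat1 of serine synthesis fell by 1.68 and 1.21, Mthfd2 of mitochondrial folate metabolism by 1.21, and the amino acid carrier Slc7a5 (chromosome 8) by 1.63. The gene of the factor itself, Atf4, fell by 0.42, and its partner gene Ddit3 rose by 0.80.

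Several housekeeping programmes were lower as well. Of 79 cytosolic ribosomal protein genes 35 fell (47 with the replicate block, 21 without WT replicate 3) and none rose (1 with the replicate block or without DGCR8 KO replicate 2), with a median of -0.41. Many of these genes have near-identical copies that unique mapping undercounts. Of 18 glycolysis genes 8 fell, with a median of -0.46. Aldoa, the muscle-type aldolase, had 608 to 662 CPM in WT and 267 to 383 CPM in DGCR8 KO cells (-0.97), and the glucose carriers Slc2a1 and Slc2a3 fell by 0.87 and 0.84. Of the 2 that rose, 1 in 5 of the 6 fits with a library left out (all but that without WT replicate 3), Pdk1, which restrains entry of pyruvate into mitochondria, rose by 1.42. Of 74 nuclear respiratory chain genes 19 fell (27 with the replicate block, 11 without DGCR8 KO replicate 1) and the median was -0.17. The number that rose was 2, which was 6 with the replicate block or without DGCR8 KO replicate 2, 1 without DGCR8 KO replicate 3, and 0 without DGCR8 KO replicate 1, WT replicate 1 or WT replicate 2.

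Of 21 cholesterol synthesis genes 12 fell, with a median of -0.52, but 4 fell without DGCR8 KO replicate 1 and 7 without WT replicate 2. Msmo1 (chromosome 8), Pmvk, Mvd (chromosome 8), Fdps and Dhcr7, enzymes along the pathway, fell by 1.04 to 1.79. Ebp, a late sterol isomerase on the X chromosome, was the 1 member that rose, from 94.6, 70.8 and 63.3 CPM to 214, 181 and 241 CPM (1.52). Lysosome genes were higher, with 12 of 25 that rose (10 to 14 with a library left out), 3 that fell and a median of 0.50. Lamp2, a lysosomal membrane protein on the X chromosome, had 101, 129 and 126 CPM in WT and 559, 561 and 520 CPM in DGCR8 KO cells, more than 4-fold apart in every library (2.1985, SE 0.12, limma adjusted p = 1.81e-07). Ctsa, a lysosomal protease that also protects other enzymes there, rose by 1.35, from 32.8 to 45.2 CPM in WT to 88.5 to 110 CPM in DGCR8 KO cells, while Ctsl and Neu1 fell by 1.03 and 1.08.

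Genes of cell shape and contact changed in part. Of 9 mesenchymal genes 4 rose, 2 without WT replicate 2, and 2 fell. Vim, vimentin, had 70.7, 124 and 138 CPM in WT and 322, 401 and 408 CPM in DGCR8 KO cells (1.76), and Cdh2, N-cadherin, rose by 1.74, whereas Lgals1 fell by 0.999. Of 14 epithelial genes 4 rose and 1 fell (median -0.01). The number that fell was 4 with the replicate block and 2 without WT replicate 3 or DGCR8 KO replicate 3. It was 0 without WT replicate 1 or WT replicate 2. The adhesion gene Epcam rose by 1.37. The 1 that fell was the tight junction gene Cldn6, by 3.67, so its fall did not hold without WT replicate 1 or WT replicate 2. Cdh1 (chromosome 8), E-cadherin, passed only with the replicate block (-0.31, and -0.29 with the block, limma adjusted p = 7.58e-05). Of 19 actin and adhesion genes 6 rose (9 with the replicate block) and 1 fell (2 with the replicate block or without DGCR8 KO replicate 3, none without DGCR8 KO replicate 1). Itgav, an integrin, had 40.9 to 67.9 CPM in WT and 169 to 171 CPM in DGCR8 KO cells (1.73), and Rhob and Itga5 rose by 1.55 and 1.48.

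By gene class, small nucleolar RNA (snoRNA) genes were the most shifted. Most of them guide chemical changes of ribosomal and spliceosomal RNA and lie in introns of host genes, but not all do. Of 50 tested 26 fell (17 without WT replicate 3) and 1 rose, the median log2 fold change was -1.20, and 43 were below 0. Their summed level was 2497 to 3045 CPM in WT and 748 to 1193 CPM in DGCR8 KO cells, and 24 of the 47 off chromosome 8 fell. Snord13 (chromosome 8) had 238, 230 and 223 CPM in WT and 16.8, 5.90 and 13.3 CPM in DGCR8 KO cells, far beyond the shift of its chromosome (-4.36, SE 0.27, limma adjusted p = 4.63e-07). Gm26205, the snoRNA gene with the most counts, had 1087, 1023 and 1156 CPM in WT and 303, 184 and 286 CPM in DGCR8 KO cells (-2.11, SE 0.15, limma adjusted p = 1.14e-06), and was named after its values were seen. Scarna9, in contrast, rose by 1.24. Of 14 snoRNA host transcripts 3 fell and none rose (4 and 1 with the replicate block), with a median of -0.18. Mature snoRNAs carry no poly(A) tail, so what a 3′-end read on them counts is uncertain. Among other classes 23 of 100 lincRNA genes fell (median -0.35), 6.04% of processed pseudogenes (-0.28) and 8 of 40 antisense genes (-0.24), against a median of 0.01 for 10365 coding genes.

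**Figure D5:**
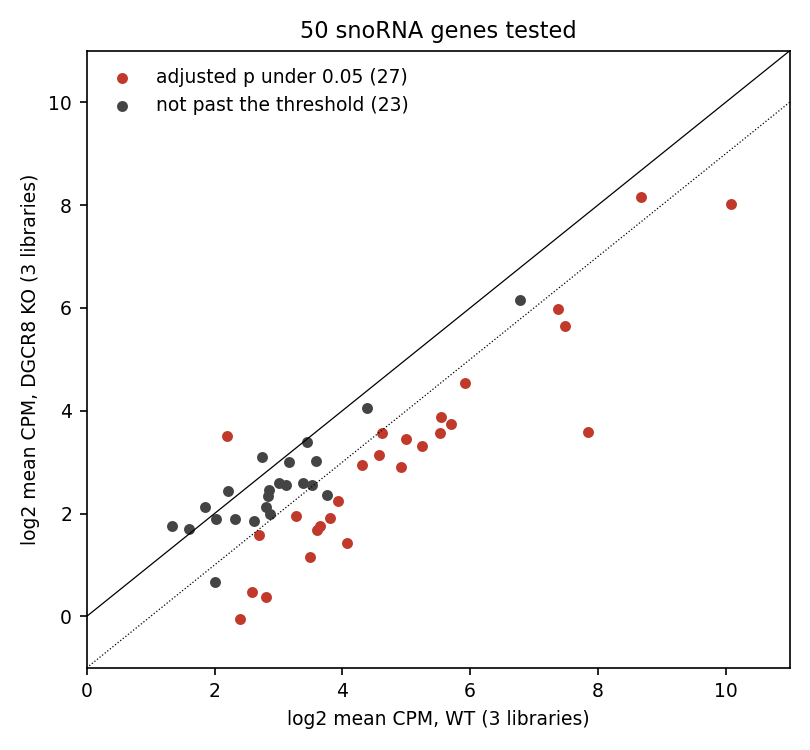
Mean level of 50 snoRNA genes in WT and DGCR8 KO cells as log2 CPM, with a solid line at equal levels and a dotted line at 2-fold lower. The 26 genes that fell lie below the solid line, with Snord13 and Gm26205 among the farthest, and 1 that rose lies above it.

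The genes with the largest fold changes outside the lists described above served varied functions. Pdzrn4, a PDZ and RING domain protein, had 2.34, 0.332 and 0.648 CPM in WT and 48.6, 58.0 and 41.8 CPM in DGCR8 KO cells (5.72, SE 0.56, limma adjusted p = 1.24e-05). Like Cds1, Anxa3, Casq2 and Fras1 below, Pdzrn4 passed the filter only through the DGCR8 KO libraries, where it is high. Cds1, which makes CDP-diacylglycerol for phospholipids, rose by 4.88, Anxa3, an annexin, by 5.20 and Atxn1 by 4.06. Casq2, a muscle calcium store protein, had 4 counts over all WT libraries and 237 over the DGCR8 KO libraries, a ratio of scaled counts of 64.3 with an exact 95% counting interval of 24.8 to 238. Fras1, a basement membrane protein, had 5 counts over all WT libraries and a ratio of 65.6 with an interval of 27.8 to 203. Fras1 and Anxa3 are neighbours on the plus strand of chromosome 5, at 96373955 to 96784728 and 96793339 to 96845966. Of 18 collagen, laminin and basement membrane genes tested, Fras1 among them, 4 rose and 6 fell (median -0.22). The number that rose was 2 without DGCR8 KO replicate 1, and 3 fell without DGCR8 KO replicate 2 or WT replicate 2.

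Beside Lin28a and Snord13, the named genes with the largest falls included Khdc3, Rhox5, Slc4a5, Smtnl1 and Xlr3a. Khdc3, of the subcortical maternal complex, had 23.9, 74.8 and 47.1 CPM in WT and 0.294, 5.25 and 2.34 CPM in DGCR8 KO cells (-4.73). Rhox5, a homeobox gene on the X chromosome, had 43.1, 35.2 and 33.7 CPM in WT and 1.18, 1.64 and 1.95 CPM in DGCR8 KO cells (-4.43). Slc4a5, a bicarbonate carrier, fell by 4.43 and Smtnl1 by 4.30. Xlr3a, also on the X chromosome and with close paralogs, had 153 counts over the WT libraries and 1 over the DGCR8 KO libraries, a ratio of 141 with an interval of 24.9 to 5604. Rhox5, Smtnl1 and Xlr3a passed the filter only through the WT libraries, where they are high.

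By the gain or loss in mean CPM other genes came first. The metallothioneins Mt1 and Mt2 (both chromosome 8), which bind zinc and copper, went from 301.4 to 402 and 1848 to 2774 CPM in WT to 1026 to 1357 and 5713 to 7998 CPM in DGCR8 KO cells (1.76 and 1.58), against the fall of their chromosome. Fstl1, a secreted glycoprotein, rose by 2.04. Bex1 on the X chromosome had 593, 533 and 570 CPM in WT and 83.9, 64.6 and 67.6 CPM in DGCR8 KO cells, an even and wide separation (-2.97, SE 0.13, limma adjusted p = 5.04e-08). Slc25a4 (chromosome 8), the mitochondrial carrier that exchanges ADP and ATP, had 500, 670 and 598 CPM in WT and 138, 152 and 129 CPM in DGCR8 KO cells (-2.07), and Upp1, a uridine phosphorylase, fell by 2.30. Sub1, a transcription coactivator, fell by 1.17, from 2330 to 2549 CPM in WT to 943 to 1289 CPM in DGCR8 KO cells, and Scd2, a fatty acid desaturase, by 1.13.

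Whether these changes differ from those in DDX6 KO cells was tested by the direct contrast of the knockouts in a fit of all 10 libraries, in which 17.1% of 11683 genes were called in either direction. It was run for the 3 highest and 3 lowest named genes and for both targeted genes. The former were picked for extreme values in the same DGCR8 KO libraries, which favours a difference in that direction. How many of them passed therefore says nothing about how far the knockouts differ. Lin28a had 13.4 to 23.2 CPM in the DDX6 KO libraries, between the WT and DGCR8 KO levels, and was lower in DGCR8 KO than in DDX6 KO cells by 2.81 on the log2 scale (SE 0.49, limma adjusted p = 0.000142). Pdzrn4, at 3.64 to 8.09 CPM in DDX6 KO cells, was higher in DGCR8 KO cells by 3.16 (SE 0.27, limma adjusted p = 5.66e-08). Khdc3, at 4.48 to 10.8 CPM in DDX6 KO cells, was not past the threshold (-1.77, SE 0.87, limma adjusted p = 0.108). The fit took the DDX6 KO libraries as replicates, with no term for their clones. Its p-values thus do not measure the spread between clones or lines.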

How the data were processed

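Libraries were made with the QuantSeq 3′ FWD kit, which reads the sense strand next to the poly(A) tail, and sequenced as single-end 50 bp reads. The values are raw gene counts as the authors deposited them. According to the study and the submitters' processing notes, the authors trimmed reads with cutadapt 1.14, aligned them to mm10 with STAR 2.5.3a, kept uniquely mapped reads, and counted them on the sense strand with featureCounts 1.5.3 against a Gencode annotation without ribosomal RNA genes and with 92 ERCC spike-in sequences. Unique mapping undercounts genes with near-identical copies. No molecular identifiers are stated.

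Spike-ins were dropped, and genes reaching 3 CPM before scaling in 3 or more of the 6 libraries were kept. They were fitted with limma 3.58.1 (voom) on TMM-scaled counts, with R 4.3.3 and edgeR 4.0.16. TMM stands for the trimmed mean of M-values. Tests were two-sided with Benjamini-Hochberg adjustment over all genes tested. The study names limma and this filter but not the transformation. Tables and figures were made in Python 3.11.15 with pandas 2.3.3, numpy 2.4.6, scipy 1.17.1 and matplotlib 3.10.9. Of 51467 genes 51274 were paired with a symbol by identifier in a GRCm38 annotation, from which coordinates and 3′ UTRs were read. On simulated counts for 10944 genes with 200 changed, this test passed 82% of genes raised 2-fold, 56% of those lowered 2-fold, and 6 of 10744 unchanged genes. Far more genes passed in the data, and the simulated libraries were drawn without pairing, so these shares need not hold there.

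Replicate numbers were taken from the library titles. Deviations from the group means correlated at 0.180, 0.296 and 0.341 between same-numbered WT and DGCR8 KO libraries and at -0.299 to -0.005 between others, so the numbers pair the libraries, and counts from a fit with the replicate number as a block are given where they differ by over 1.5 times. No library pair agreed within counting noise.

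The gene lists (46) and the genes named were chosen with earlier results of these data known. Named were Dgcr8, up to 4 members of each list with an adjusted p under 0.05 and the largest fold change together with members the list turns on, the 8 highest and 8 lowest genes by fold change and by gain or loss of CPM (called, mean of at least 10 CPM, no overlap, a symbol other than a predicted gene), and the 6 called higher genes with an 8mer and the most sites. Lists and medians were described without a test, and some genes that the rule names are not reported here. Alternatives were other scalings, filters and tests (edgeR quasi-likelihood, DESeq2 1.42.0, limma-trend), all 10 libraries, and leaving out each library.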

Additional observations from a re-analysis of the deposited data

Results flagged for a closer look

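The differences here come from setting DGCR8 KO directly against DDX6 KO cells in a fit of all 10 libraries. Each knockout's own change was measured against the same WT libraries, but the contrast itself sets knockout against knockout, so WT values do not enter the difference. A gene is listed because its change against WT differed between the knockouts by that test. Apart from the targeted genes, those tested were picked as extreme in the same DGCR8 KO libraries, which favours such a difference.

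Of the genes highest in DGCR8 KO cells, Casq2 was higher than in DDX6 KO cells by 4.27 on the log2 scale (SE 0.79, limma adjusted p = 0.000261), with 0.366 to 1.76 CPM in the 4 DDX6 KO libraries. In all WT and DDX6 KO libraries Casq2 lay under 3 CPM, so it was tested only through the DGCR8 KO libraries. Fras1 was higher by 3.39 (SE 0.44, limma adjusted p = 6.67e-06), with 1.39 to 5.49 CPM in DDX6 KO cells. Pdzrn4 was higher by 3.16 (SE 0.27, limma adjusted p = 5.66e-08). All 3 were higher in 3 of 3 DGCR8 KO libraries than in any DDX6 KO library.

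Of the lowest genes, Lin28a was lower by a log2 difference of -2.81 (SE 0.49, limma adjusted p = 0.000142), and Rhox5 by one of -3.09 (SE 0.85, limma adjusted p = 0.00667). Rhox5 differed between the DDX6 KO clones, with 31.5 and 29.6 CPM in clone 1 and 5.63 and 10.1 CPM in clone 2, and was below all 4 in every DGCR8 KO library. The fit had no term for clone. The targeted genes differed as labelled, Dgcr8 by -2.04 (limma adjusted p = 2.71e-06) and Ddx6 by 2.94 (limma adjusted p = 2.71e-06).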

How the results depend on the processing

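With the adjusted p alone as criterion 2046 genes were higher and 1737 lower, and with a filter of 10 CPM 382 were called lower. The median of genes with an ESCC site was 0.23, 0.41 for 8mers only and 0.43 with 2 or more sites. With a library left out, 779 to 957 genes were called higher and 471 to 590 lower, the log2 fold change of Dgcr8 was -2.55 to -2.21, the chromosome 8 median -0.47 to -0.42 and the ESCC site median 0.22 to 0.24. With the replicate block, which pairs libraries by number, 962 genes were called higher and 625 lower, 2610 rose and 2352 fell. None of 232 named genes lost its call under the block, and beyond the list counts printed with it the block moved no list count given here by over 1.5 times. Of 11 genes printed as not past the threshold, it took 4 (Rhoc, Drosha, Cdh1 and Zfp42) past it. Other scalings, no filter, edgeR, DESeq2, limma-trend and all 10 libraries gave 881 to 1185 genes called higher and 576 to 844 lower, and TMM without chromosome 8 moved the median of all genes by -0.02. Of 3608 values of named genes under the alternatives 114, in 40 genes, lost the threshold, 0 reversed, and 11 genes lost it in a setting that kept every library. Fits in which a gene missed the filter or got no adjusted p, as for Dab2 with a WT library left out, gave no value. They are not counted as losses. Of 703 list medians 60 moved beyond their spread. The causes were not tested. At this depth genes under about 1 CPM could not be compared.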

Other observations

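Several groups of genes not described above also moved. Imprinted genes, expressed from 1 parental copy, fell more often than they rose, with 11 of 29 tested that fell (6 without WT replicate 2) and 3 that rose, and a median log2 fold change of -0.17. Slc38a4, an amino acid carrier, went from 193 ± 11.4 CPM in WT to 56.6 ± 11.7 CPM in DGCR8 KO cells (SD, n = 3 each), without overlap (-1.76). Usp29, Peg10 and Peg3 fell by 2.37, 1.60 and 1.18 on the log2 scale, while Impact rose by 1.03. Of 13 germline genes whose promoters are known to be silenced by DNA methylation, 5 fell and 4 rose, and the median of -0.46 changed sign between settings. The number that fell was 2 without WT replicate 1 or WT replicate 2 and 3 without WT replicate 3, which also left 2 that rose. Tex19.1 and Stk31 fell by 1.29 and 1.98, and Sohlh2 and Rhox9 rose by 2.27 and 2.31. Of 12 genes for adding, reading or removing DNA methylation 3 rose and 2 fell (5 and 4 with the replicate block). Uhrf1, which brings the maintenance methyltransferase to replicated DNA, fell by 1.05, and the demethylating enzyme Tet1 rose by 0.51.

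Chromosome 8 also held genes with large increases. Irf2, an interferon regulatory factor, had 1.87, 1.33 and 0.432 CPM in WT and 22.97, 16.7 and 11.3 CPM in DGCR8 KO cells (4.01), and Hhip, a Hedgehog inhibitor, had 1.405, 1.99 and 3.46 CPM in WT and 35.3, 45.9 and 17.6 CPM in DGCR8 KO cells (3.65). Irf2 passed the filter only through the DGCR8 KO libraries, where it is high. Tex15, a testis gene, fell by 2.44. All 3 were picked out only once their values had been seen.

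Of 262 genes named Zfp with a number, 25 rose and 33 fell, with a median of -0.04. The number that rose was 15 without DGCR8 KO replicate 1, 16 without WT replicate 2 and 14 without WT replicate 3, and 19 fell without DGCR8 KO replicate 1. Of 20 replication-dependent histone genes, whose mRNAs mostly lack a poly(A) tail, 3 fell (6 with the replicate block), with a median of -0.45. Of 7 protein genes of the mitochondrial genome 3 rose (5 with the replicate block, 0 without WT replicate 3). The Y-linked genes Uty and Ddx3y fell by 2.67 and 0.94 in the 6 libraries, calls that were lost in the fit of all 10 libraries, where the values were -2.66 (limma adjusted p = 0.107) and -0.93 (limma adjusted p = 0.377). Spike-in sequences took 1.20% to 2.31% of counts in WT and 1.57% to 1.89% in DGCR8 KO libraries.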
